A study of Mus musculus with 6 samples.

Results

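Epithelial cells and mesenchymal cells differ in the filaments and adhesion molecules they make, and cells can move between these states in epithelial-mesenchymal transition (EMT). The genes described here are markers and regulators of that state. They comprise *Vim*, the EMT transcription factor genes *Zeb1*, *Zeb2*, *Snai1*, *Snai2* and *Twist1*, the simple keratin genes *Krt8*, *Krt18* and *Krt19*, and *Epcam*. They were taken by gene name from a list of 10, drawn up with earlier results of these data known, by a rule that uses no measured value, and 8 of them were found among the 20624 genes of the deposited table. *Krt18* and *Krt19* were not analysed here.

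RNA sequencing after removal of ribosomal RNA was carried out on mDCT15, a mouse line described as distal convoluted tubule cells, with 3 *Pkd1*-/- and 3 wild type samples. Both genotypes were grown in DMEM/F12 medium with fetal bovine serum. The knockout was made by CRISPR-Cas9 editing, although the label field for genotype says knockdown, and whether the edited line is 1 clone is not given in the sources used here. The value analysed is the authors' mean normalized count of each gene over all 6 samples, so it describes mDCT15 cells of both genotypes together, and a gene expressed in only 1 of them would also show a level. It has no spread between replicates, the depth of each sample is unknown, and the difference between the genotypes was not analysed here. In such bulk RNA, fewer cells that express a gene and less RNA per cell cannot be told apart. The targeted gene itself, *Pkd1*, had a mean normalized count of 3175, which as a mean over both genotypes is no check of the editing.

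In an epithelium, keratins 8, 18 and 19 form the intermediate filaments and EPCAM is a cell surface adhesion protein. Mesenchymal cells build their intermediate filaments from vimentin, the product of *Vim*. The proteins of the SNAIL and ZEB families are zinc finger repressors that bind E-boxes with the letters CAGGTG in epithelial genes, and TWIST1 is a basic helix-loop-helix factor that also binds E-boxes.

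The promoters of the highest and the lowest member and of *Epcam* are shown because they differ in this motif. Each window holds 250 bases before the start site and 50 from it on, in RefSeq on GRCm38.p6. The *Vim* window is chr2:13574061-13574360 (plus strand), the *Krt8* window chr15:102004293-102004592 (minus strand) and the *Epcam* window chr17:87635729-87636028 (plus strand). Capitals mark the E-box, read as CAGGTG or, for the opposite strand, CACCTG.
Vim: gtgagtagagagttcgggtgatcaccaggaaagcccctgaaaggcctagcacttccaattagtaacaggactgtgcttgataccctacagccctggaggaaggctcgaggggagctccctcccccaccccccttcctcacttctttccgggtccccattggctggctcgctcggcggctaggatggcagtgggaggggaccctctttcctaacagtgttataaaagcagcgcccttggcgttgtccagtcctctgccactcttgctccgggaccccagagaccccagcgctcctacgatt
Krt8: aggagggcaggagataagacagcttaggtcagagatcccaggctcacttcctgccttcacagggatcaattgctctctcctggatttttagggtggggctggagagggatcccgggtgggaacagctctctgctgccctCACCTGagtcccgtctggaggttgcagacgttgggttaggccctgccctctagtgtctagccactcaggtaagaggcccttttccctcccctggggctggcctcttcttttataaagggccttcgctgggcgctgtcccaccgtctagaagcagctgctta
Epcam: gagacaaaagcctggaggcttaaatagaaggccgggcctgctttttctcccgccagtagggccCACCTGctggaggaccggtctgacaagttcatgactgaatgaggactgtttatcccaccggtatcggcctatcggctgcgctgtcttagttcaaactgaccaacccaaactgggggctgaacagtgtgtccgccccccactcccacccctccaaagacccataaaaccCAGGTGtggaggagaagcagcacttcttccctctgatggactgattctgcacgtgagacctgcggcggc

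The *Vim* window held no such E-box. The *Krt8* window held 1, whose first base lies at position -111 from the start site, and the *Epcam* window held 2, which begin at positions -187 and -19. Windows were at hand for 7 members, 10 windows in all, and none for *Zeb1*, *Snai2* and *Krt19*. *Krt18* (1 site, at position -214) and *Snai1* (1 site, at position -126) also held the motif, whereas *Twist1* and the 4 windows of *Zeb2* did not. The 3 epithelial members with a window thus each held an E-box, as did 1 of the 4 others. The share by gene over all genes was not computed, so this count has no background beside it. Counted by window, 4 of the 10 member windows held at least 1, beside 20.2% of the 32851 promoter windows of this length. *Zeb2* gave 4 of the 10, some of which overlap, and a difference from that share was not tested. These letters describe the windows only, since binding of a factor was not measured.

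**Figure D1:**
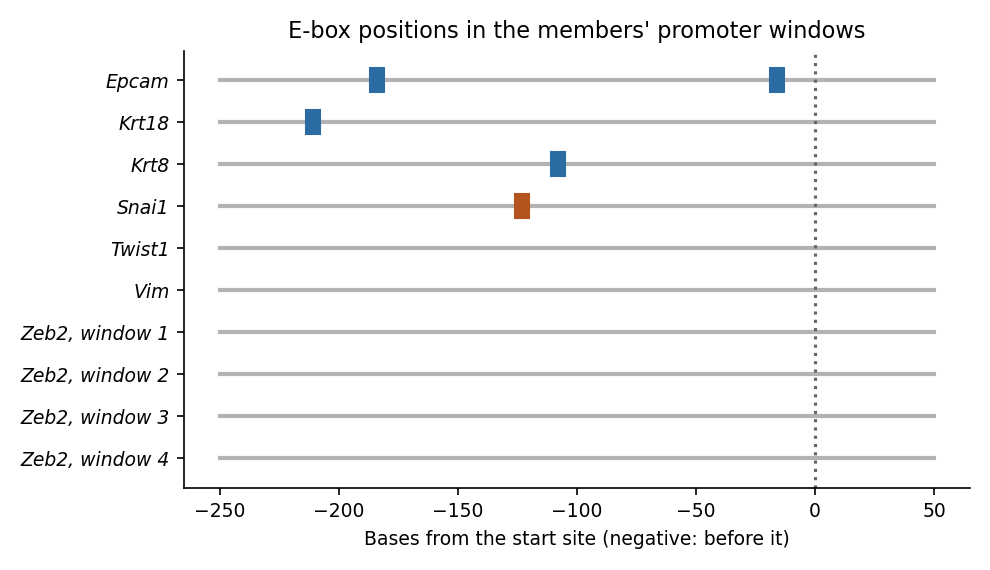
E-box positions (CAGGTG on either strand) in the promoter windows of 7 members. The horizontal axis gives bases from the start site (dotted line), each grey line is 1 window, and boxes are sites in epithelial members (blue) and in *Snai1* (orange). *Epcam*, *Krt18*, *Krt8* and *Snai1* hold sites and the other windows hold none.

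By the authors' counts, whose strand was not tested, *Vim* was among the most abundant transcripts of these cells. The EMT factors among the members spanned a range from low to moderate. *Epcam* lay near the middle of all genes, and *Krt8* was close to the lower end of the table. To compare genes, each mean normalized count was divided by the length of the merged exons of the gene in kilobases (GENCODE M39, GRCm39). On this scale the order was *Vim* (3672), *Twist1* (103), *Zeb1* (85.7), *Epcam* (44.6), *Snai2* (28.1), *Zeb2* (14.5), *Snai1* (8.85) and *Krt8* (0.501). Over all 20122 annotated genes of the table the median was 28.6 per kilobase. With 1 pooled value per gene, whether neighbours in this order differ beyond their spread cannot be assessed.

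**Figure D2:**
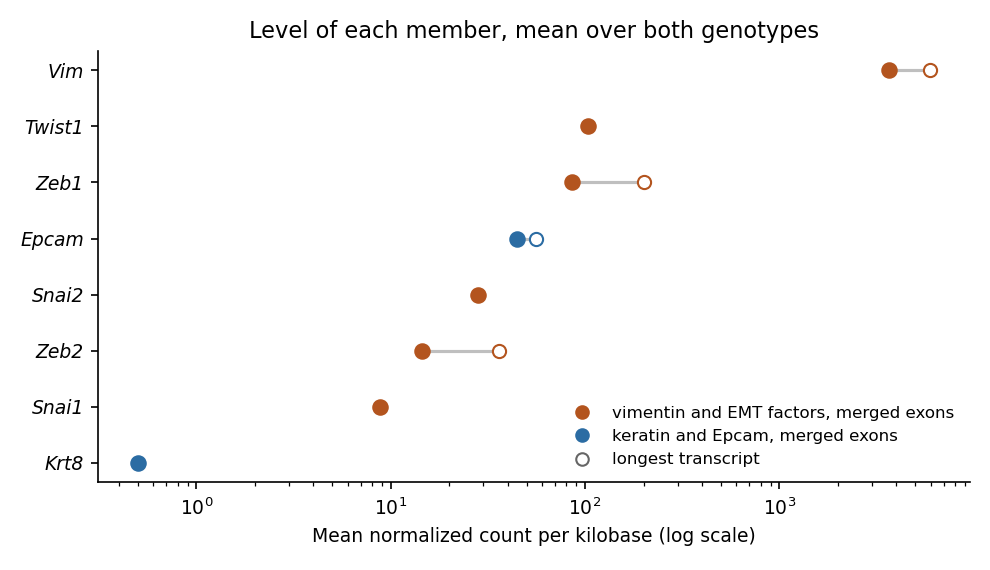
Mean normalized count per kilobase of the 8 members found, on a logarithmic axis. Filled points use merged exons and open points the longest annotated transcript; orange marks vimentin and EMT factors, blue *Krt8* and *Epcam*. *Vim* stands at 3672 and *Krt8* at 0.501, and the open and filled points are farthest apart for *Zeb1* and *Zeb2*.

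*Vim* (ENSMUSG00000026728, plus strand of chromosome 2 between 13578738 and 13587639 on GRCm39) reached a mean normalized count of 17450, rank 36 of all genes of the table. This was 0.104% of the sum of the means. Per kilobase it ranked 55, above 99.7% of annotated genes. Its level per kilobase of merged exons was 35.7 times that of *Twist1*, the next member on this scale, and 82.3 times that of *Epcam*. By the longest transcript it was 57.9 times that of *Twist1*, and the next member was then *Zeb1*, with *Vim* 29.6 times as high. Against the gene of beta-actin, *Actb*, one of the highest of the table, the level of *Vim* per kilobase was 0.100 times as high.

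Other genes of intermediate filaments place *Vim* among its relatives. Of the 11 listed, 8 were found and 6 had a mean of at least 10. The highest per kilobase were the nuclear lamin genes *Lmnb1* (995) and *Lmna* (900) and the gene of nestin, *Nes* (733). The *Vim* level per kilobase of merged exons was 3.69 times that of *Lmnb1*, 4.08 times that of *Lmna* and 5.01 times that of *Nes*. These ratios depended on the length used and were 5.36, 4.55 and 7.77 by the longest transcript. *Des* and *Gfap*, which encode the filament proteins of muscle and of astrocytes, had mean normalized counts of only 8.94 and 5.57. Of the cytoplasmic filament genes on that list, only *Nes* had a mean of at least 100.

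*Krt8* (ENSMUSG00000049382, minus strand of chromosome 15 between 101905133 and 101912917) reached a mean normalized count of 0.980. This comes to 5.88 normalized counts over the 6 samples together, so its level is imprecise. The lowest mean in the table was 0.618, and 5.78% of its genes lay below *Krt8*. That share is among genes of the table only. The authors' methods name a cutoff on counts per sample and gene, and how it applied to a mean as low as that of *Krt8* is not given. The low value has to be read with the copies of the gene, since 55.7% of its windows of 42 bases, the length of 1 read, occur again at another place in the genome. All 885 of these windows match within *Nlrp4e*, where the processed pseudogene *Krt8-ps* lies. Of the matching places, 418 fall wholly within the annotated *Krt8-ps*. Read pairs that fall wholly in such windows can be placed at *Krt8* or at the matching place. The counter does not count them at its default setting. Since reads were sequenced in pairs, a pair with 1 read outside these windows can still be placed. The share of reads lost may therefore be smaller than 55.7%. With the exon length reduced by the full 55.7%, the level per kilobase was 1.13 in place of 0.501, still the lowest of the 8 members. Among the other members at most 3.06% of windows were repeated (*Snai2*), and *Vim*, *Twist1* and *Epcam* had 0.

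The other keratin genes found were low as well, apart from *Krt80*. Of 12 other keratin genes listed, 4 were found, and 3 of them had a mean of at least 10. These were *Krt10* (23.3), *Krt17* (18.3) and *Krt7* (16.6), of which *Krt7* is a keratin of simple epithelia. *Krt14*, a basal keratin, had a mean normalized count of 1.37. A look at the 54 annotated keratin genes, made after these values were seen, found 7 in the table, 4 of them at a mean of at least 10. Only *Krt80* among these had a mean of at least 100, with 825 or 129 per kilobase, above 74.9% of annotated genes. The level of *Vim* per kilobase was 28.4 times that of *Krt80*.

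*Epcam* (ENSMUSG00000045394, plus strand of chromosome 17 between 87943407 and 87958557) reached a mean normalized count of 115, just above the table's median of 104.5. Per kilobase it lay above 55.8% of annotated genes, and above 39.2% of those that code for protein. *Cdh16*, the gene of kidney-specific cadherin, stood at 1125 per kilobase, 25.2 times the level of *Epcam* and above 98.4% of annotated genes.

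Among the 5 EMT factors that are members, *Zeb1* and *Twist1* had the highest levels per kilobase and *Snai1* the lowest. *Zeb1* (ENSMUSG00000024238) had a mean normalized count of 1168 and *Zeb2* (ENSMUSG00000026872, minus strand of chromosome 2 between 44873644 and 45007464) one of 330. Per kilobase the level of *Zeb1* was 5.91 times that of *Zeb2*. Both have many annotated exons, and by the length of their longest transcript the levels per kilobase were 201 for *Zeb1* and 36.1 for *Zeb2*. The ratio between them was then 5.57.

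*Snai2* (ENSMUSG00000022676, plus strand of chromosome 16 between 14523425 and 14527252) reached a mean normalized count of 65.0. *Snai1* (ENSMUSG00000042821, plus strand of chromosome 2 between 167380113 and 167384734) reached one of 14.4. Per kilobase *Snai2* was 3.17 times as high as *Snai1*, and *Snai1* lay above 37.0% of annotated genes. *Snai1* is thus a gene with few counts, 86.2 normalized counts over the 6 samples together.

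*Twist1* (ENSMUSG00000035799, plus strand of chromosome 12 between 34007645 and 34009828) reached a mean normalized count of 170. It is a short gene, and per kilobase it stood 11.6 times above *Snai1* and 1.20 times above *Zeb1*. The order of *Twist1* and *Zeb1* turned with the length used, with *Twist1* at 0.511 times the level of *Zeb1* by the longest transcript. In the same way *Snai2* stood above *Zeb2* by merged exons and at 0.778 times its level by the longest transcript.

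**Figure D3:**
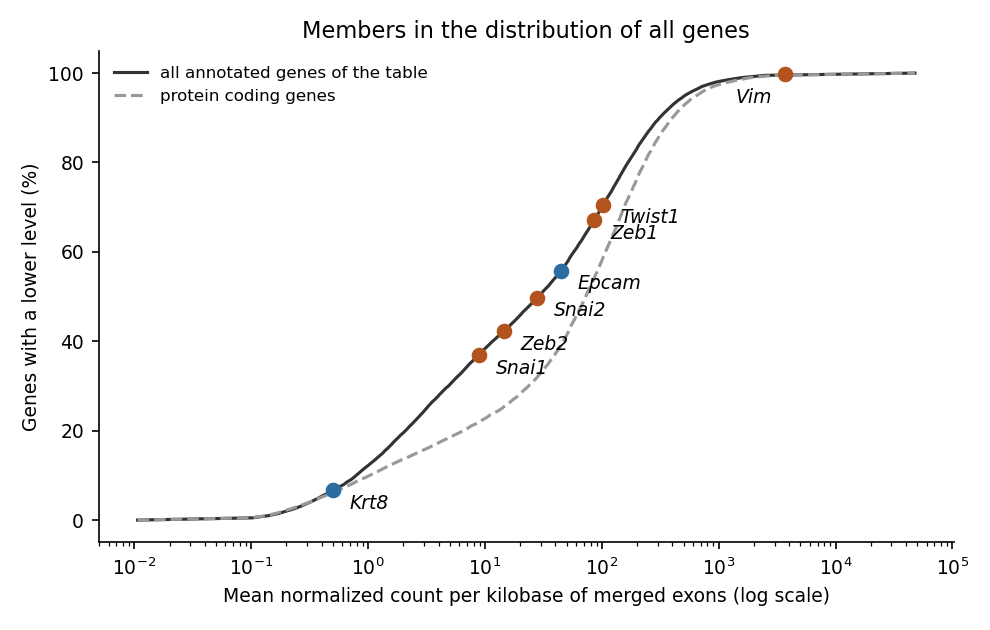
Share of genes with a lower level (vertical axis, percent) against the mean normalized count per kilobase of merged exons (logarithmic axis). The solid line is all 20122 annotated genes of the table, the dashed line those that code for protein, and points are the members placed on the solid line (orange *Vim* and EMT factors, blue *Krt8* and *Epcam*). *Vim* lies at 99.7% and *Krt8* at 6.62%, with the other 6 members between 37.0% and 70.6%.

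Some members share exon sequence with genes on the opposite strand. *Zeb2os* overlaps exons of *Zeb2* over 871 bases and *Zeb1os1* those of *Zeb1* over 198 bases. Their mean normalized counts were 1.43 and 6.51, far below those of *Zeb2* and *Zeb1*. The counter assigns reads of 1 strand at its default setting. Libraries were made with the KAPA RNA HyperPrep Kit with RiboErase, and whether the counted strand matches this kit is not given in the sources used here. With the opposite strand counted, values would stand for antisense reads. For 8 listed abundant genes, among them *Actb*, *Eef1a1* and *Tubb5*, mean normalized counts ran from 7534 to 107295. The lowest of them, *Gapdh*, stood above 98.2% of annotated genes per kilobase. These abundant genes, *Zeb1* and *Zeb2* had far higher values than the 2 antisense genes named here. Genes this abundant can rank high even from few reads of the other strand, so their values cannot decide the strand. Which strand was counted was not tested.

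Of the 8 members found, 7 had a mean normalized count of at least 10, beside 66.5% of all genes of the table. Of 8 other EMT transcription factor genes, 6 were found and 4 reached that mean. *Tcf3*, which encodes the E-box binding E2A proteins, was the highest of them at 419 per kilobase, followed by *Twist2* (68.5) and *Tcf4* (34.3). The level of *Zeb1* per kilobase was 1.25 times that of *Twist2*. *Prrx1* and *Gsc* had mean normalized counts of 3.52 and 2.15. *Foxc2* and *Klf8* were not analysed here.

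Mesenchymal marker genes ranged from very high to very low levels. Of 12 listed, 11 were found and 8 had a mean of at least 10, with a median over the 11 of 32.4 per kilobase. *Sparc* (2641), which encodes a matrix glycoprotein, *Fn1* (1663), the gene of fibronectin, and *Cdh2* (553), the gene of N-cadherin, were the highest per kilobase. *Vim* exceeded *Fn1* by 2.21 times per kilobase and *Cdh2* by 6.65 times. By contrast the 3 found under a mean of 10, *Col1a2*, *Col3a1* and *S100a4*, had mean normalized counts of 2.71, 2.44 and 2.90. Between these ends lay *Tagln*, *Cdh11*, *Col1a1*, *Acta2* and *Mmp2*, with mean normalized counts of 1057, 376, 201, 110 and 14.0. *Thy1* was not analysed here.

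Epithelial genes also held high levels beside the low *Krt8*. Of 11 adhesion genes listed, 7 were found and 6 had a mean of at least 10, with a median of 101.3 per kilobase. After *Cdh16*, the highest per kilobase were *Tjp1* (710), the gene of a tight junction scaffold, and *Jup* (382), that of plakoglobin. *Cgn*, *Dsp* and *Ocln* had mean normalized counts of 632, 437 and 52.6, and *Cldn4*, a claudin gene, had 4.00. *Cdh1*, *Cldn3*, *Cldn7* and *Cldn8* were not analysed here, so the level of E-cadherin is not among these values. *Cdh2* stood at 0.491 times the level of *Cdh16* per kilobase.

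Regulators that maintain the epithelial state were mostly low, with 7 of the 8 found under the median level of all annotated genes. Of 9 listed, 5 had a mean of at least 10, with a median of 8.24 per kilobase. *Elf3* was the highest at 153 per kilobase, followed by *Esrp2* (24.7), which encodes an epithelial splicing regulator, and *Ehf* (19.2). *Grhl3* and *Grhl1* had mean normalized counts of 49.8 and 48.9, and *Grhl2*, *Ovol1* and *Esrp1* had 1.82, 1.94 and 7.37. *Ovol2* was not analysed here, and neither were the 5 genes of the miR-200 family, which are known to target *Zeb1* and *Zeb2*.

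**Figure D4:**
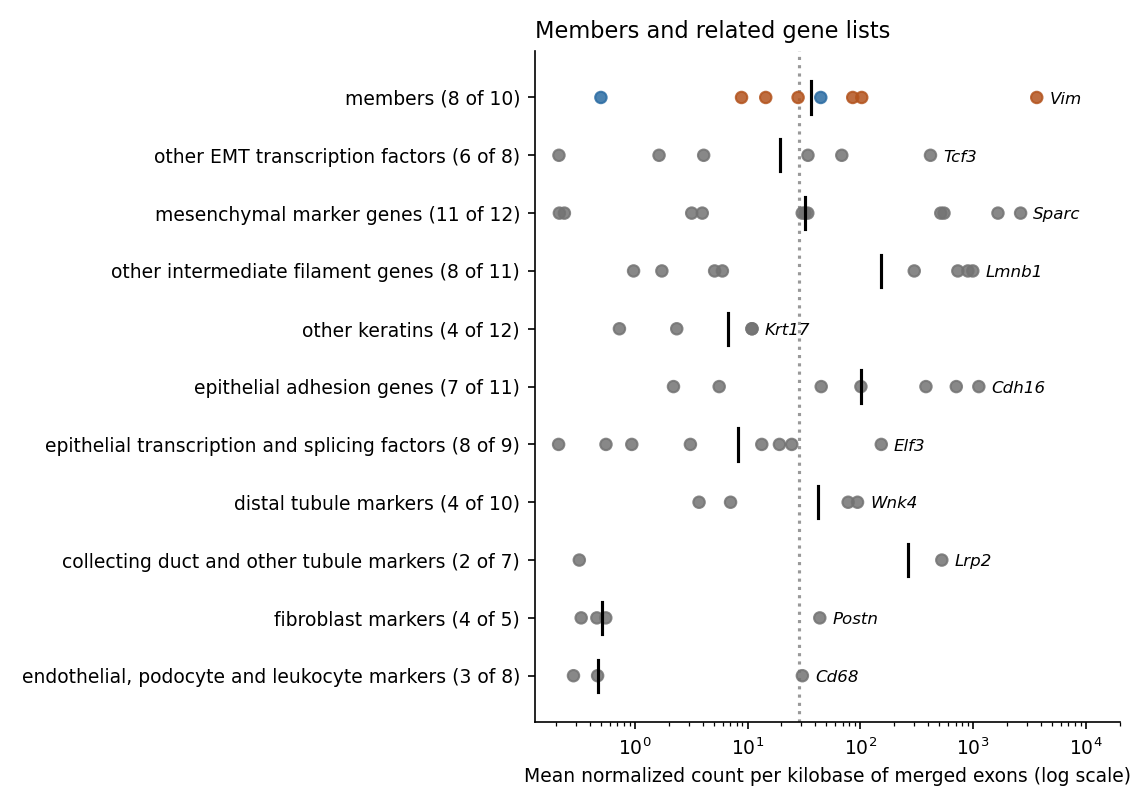
Mean normalized count per kilobase of merged exons (logarithmic axis) for the members and for 10 related lists, with the number of genes found of those listed. Each point is a gene, black bars are medians over the genes found, the dotted line is the median of all annotated genes, and the highest gene of each list is named. *Vim* lies above the highest gene of every other list drawn, the nearest being *Sparc* at 2641.

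The labelled cell type was compared with its markers. Of 10 distal tubule genes, 4 were found, and all 4 had a mean of at least 10. They were *Wnk4* (94.5 per kilobase), *Kcnj16* (78.0), *Kcnj10* (7.07) and *Trpm6* (3.72). *Slc12a3*, the defining transporter of the distal convoluted tubule, was not analysed here.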

How the data were processed

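RNA of 3 *Pkd1*-/- and 3 wild type samples of mDCT15 cells was sequenced, and samples were grouped by their titles. Per the labels and the methods, the authors used Trim Galore 0.4.5 for trimming, mapped reads with STAR 2.7.5a to GRCm39, counted them with HTSeq 0.11.0 at default settings and normalized them with DESeq2 1.22.0. From the deposited table only the authors' mean normalized count was used, a signal per gene averaged over all 6 samples after division by library size factors. The other deposited columns hold the authors' own comparison of the genotypes (fold change, standard error, statistic and p-values) and were not used. No test was therefore made.

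Means were divided by the merged exon length in GENCODE M39, which holds 20122 (97.6%) of the identifiers. Windows of 42 bases were matched exactly to GRCm39, and the matching was tested on simulated data. A minimum mean of 10 served as the limit for counting genes, with 1 and 100 as alternatives. For symbols with more than 1 identifier the highest mean was kept. Members and lists were chosen with earlier results of these data known. A gene of 1 list is not reported here. Named are the members, the 3 highest genes per kilobase of each list and the genes not analysed where 5 or fewer, and others, such as low genes and *Krt80*, were chosen after their values were seen. Python 3.11.15, numpy 2.4.6, pandas 2.3.3 and matplotlib 3.10.9 were used.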

Additional observations from a re-analysis of the deposited data

How the results depend on the processing

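The order of the members depended on the length that divides the mean. Of the 8 members, 3 kept their place without division by length and 4 by the longest transcript, and 8 kept it when repeated windows were left out. *Vim* and *Krt8* were first and last under each of these. The levels per kilobase of *Vim*, *Zeb1* and *Zeb2* by the longest transcript were 5964, 201 and 36.1, against 3672, 85.7 and 14.5. With a minimum mean of 1 or 100, 7 or 5 members passed. Percentiles fell where low or non-coding genes were left out, for *Zeb2* from 42.3 to 25.3 among protein coding genes and to 17.6 among genes above the minimum mean of 10. No paired analysis was possible because each gene has 1 value pooled over all samples, and leaving out a replicate was not possible for the same reason. Without values of single samples, counting error and the spread between replicates are unknown.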

Other observations

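Markers of other cell types gave a mixed picture. Of 7 genes of other tubule segments, *Lrp2*, which encodes the endocytic receptor megalin of the proximal tubule, had a mean normalized count of 8826 and stood above 95.2% of annotated genes per kilobase. *Slc34a1*, the proximal phosphate transporter gene, had a mean normalized count of 2.04, and the other 5, *Aqp2*, *Slc12a1*, *Umod*, *Slc4a1* and *Foxi1*, were not analysed here.

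Of 5 fibroblast markers, *Postn* had a mean normalized count of 383, while *Dcn*, *Pdgfrb* and *Pdgfra* had 6.01, 4.48 and 4.12, and *Lum* was not analysed here. Of 8 endothelial, podocyte and leukocyte markers, 3 were found, *Cd68* at 41.9, *Ptprc* at 5.36 and *Pecam1* at 4.68. Of the 4 fibroblast markers found, only *Postn* had a mean of at least 10. The part of other cell types in these values was not tested.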
